A study of Homo sapiens with 24 samples.

Results

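The chromatin of the UMUC1 line that carries wild-type UTX was described from 6 peak lists of chromatin immunoprecipitation sequencing (ChIP-seq). The lines of the series were not compared, and 1 list of the empty-vector line served only as a background for the UTX antibody. The members were all lists of samples whose title names the wild-type UTX construct, 6 of the 18 lists of the series. They comprised 1 list each for UTX, MLL4, H3K4me1 and H3K27me3, and 2 numbered libraries for H3K27ac. The series has 24 samples, of which 8 belong to this line, and 2 of these 8 are inputs without a list. UMUC1 is an established human bladder cancer cell line, and the cells stably expressed wild-type UTX from a pSIN construct with puromycin selection. They were harvested 3 days after plating. The sources used here give neither the promoter of the construct nor the number of clones. The chromatin for UTX and MLL4 was cut with micrococcal nuclease to fragments of mainly 300 to 900 bp and then sonicated, while that for the histone marks was only sonicated. Bladder and epithelial marker genes could not be looked up, because no gene annotation on hg19 was used here, and all regions are given by position.

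UTX, also called KDM6A, is a demethylase that removes methyl groups from lysine 27 of histone H3 and a subunit of the complexes built around MLL3 and MLL4. MLL4, also called KMT2D, is the methyltransferase that places much of the H3K4me1 at enhancers. H3K4me1 marks active and poised enhancers, H3K27ac marks active enhancers and promoters, and H3K27me3 is the mark of Polycomb repression. Nucleosomes are often sparse where factors bind at enhancers, with modified nucleosomes on both sides.

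The UTX list held 2566 narrow peaks, of which 2565 lay on chromosomes 1 to 22 and X and were used. They were short, with a median width of 234 bp, and covered 671 kb. The 898 MLL4 peaks had a median width of 205 bp and covered 205 kb. Histone regions were wider and far more numerous. H3K27ac had 63505 regions in replicate 1 (96.0 Mb) and 40438 in replicate 2 (55.3 Mb), with median widths of 1072 and 1021 bp. H3K4me1 had 165716 regions (179 Mb, median 726 bp) and H3K27me3 had 199801 (168 Mb, median 546 bp). The replicate 2 H3K27ac list was nearly contained in that of replicate 1, since 92.3% of its bases were also in the replicate 1 list and 53.2% of the replicate 1 bases were in that of replicate 2. No read depth can be read from the files, so depth is unknown for all 6 lists, and where no peak is listed the signal was below the caller's threshold, not necessarily absent. As a background for the antibody, the empty-vector line of the same series had 31 UTX peaks, and 27 of the wild-type UTX peaks (1.05%) overlapped one of these.

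The MLL4 list had a gap of its own. It held 0 peaks on chromosomes 20, 21 and 22, where the UTX list held 105, 43 and 57, and at least 8 peaks on each of the other 20 chromosomes. The cause was not tested. Overlaps of UTX with MLL4, MLL4 densities and shares of regions with MLL4 or with neither factor were therefore taken from those 20 chromosomes, which hold 2360 of the UTX peaks. Values for UTX alone are from all chromosomes.

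The first question was which histone regions hold the summits, the base of highest signal in each peak. Most UTX summits lay in acetylated chromatin, and nearly all had H3K4me1 at or next to them. H3K27ac regions held 88.2% of UTX summits in replicate 1 and 67.9% in replicate 2 (mean 78.1% ± 14.4, SD, n = 2). For MLL4 the shares were 90.1% and 67.9% (79.0% ± 15.7, SD, n = 2). The 2 factors thus differed by far less than the 2 acetylation libraries did. Of the UTX summits, 1714 (66.8%) were inside H3K27ac of both libraries, 549 in replicate 1 only, 27 in replicate 2 only and 275 (10.7%) in neither.

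H3K4me1 gave a different picture, because the summits stood between its regions as often as inside them. Only 1179 UTX summits (46.0%, 95% Wilson interval 44.0% to 47.9%) lay inside an H3K4me1 region. Another 1260 (49.1%, 47.2% to 51.1%) lay in an H3K4me1 gap, defined as a place outside H3K4me1 with a region edge within 1 kb on both sides. A further 116 (4.52%) had H3K4me1 within 1 kb on 1 side, and 10 (0.390%) had none. MLL4 summits followed the same order, with 38.8% inside, 47.0% in a gap and 8.46% with H3K4me1 on 1 side. MLL4 had more summits with no H3K4me1 within 1 kb, 52 of 898 (5.79%, 4.44% to 7.51%), than UTX on the same 20 chromosomes, with 10 of 2360 (0.424%, 0.230% to 0.778%). These shares rest on how H3K4me1 was called. With only the 20175 H3K4me1 regions of −log10 q of at least 5, 32.7% of UTX summits were inside and 18.6% in a gap, and with regions up to 1 kb apart joined 93.6% were inside. Wilson intervals here cover counting error only, since each antibody but H3K27ac has 1 list and peaks of a list are not replicates.

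The share of positions inside H3K4me1 dipped at the summits and was highest beside them. Around UTX it was 46.0% at the summit, 90.7% at 500 bp on either side, 82.4% at 1 kb and 52.1% at 2000 bp. The dip at the summit was therefore 44.7 percentage points deep, and around MLL4 it was 45.4 points deep, with a highest share of 84.2% at 600 bp. Acetylation dipped less. For UTX the share in H3K27ac went up by 5.77 points between the summit and 300 bp in replicate 1 (highest share 94.0%), and by 13.7 points between the summit and 400 bp in replicate 2 (81.6%). The lists differed in call strength, with a median −log10 q of 2.55 for H3K4me1 and 5.79 and 4.71 for the H3K27ac replicates. The part of this in the depth of the dips was not tested. The profiles were close to symmetric, as the left and right sides of UTX summits differed by at most 2.61 points in these 3 lists. H3K27me3 stayed low throughout, at 0.0780% at UTX summits and at most 2.38% within 3000 bp when both sides were averaged.

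**Figure D1:**
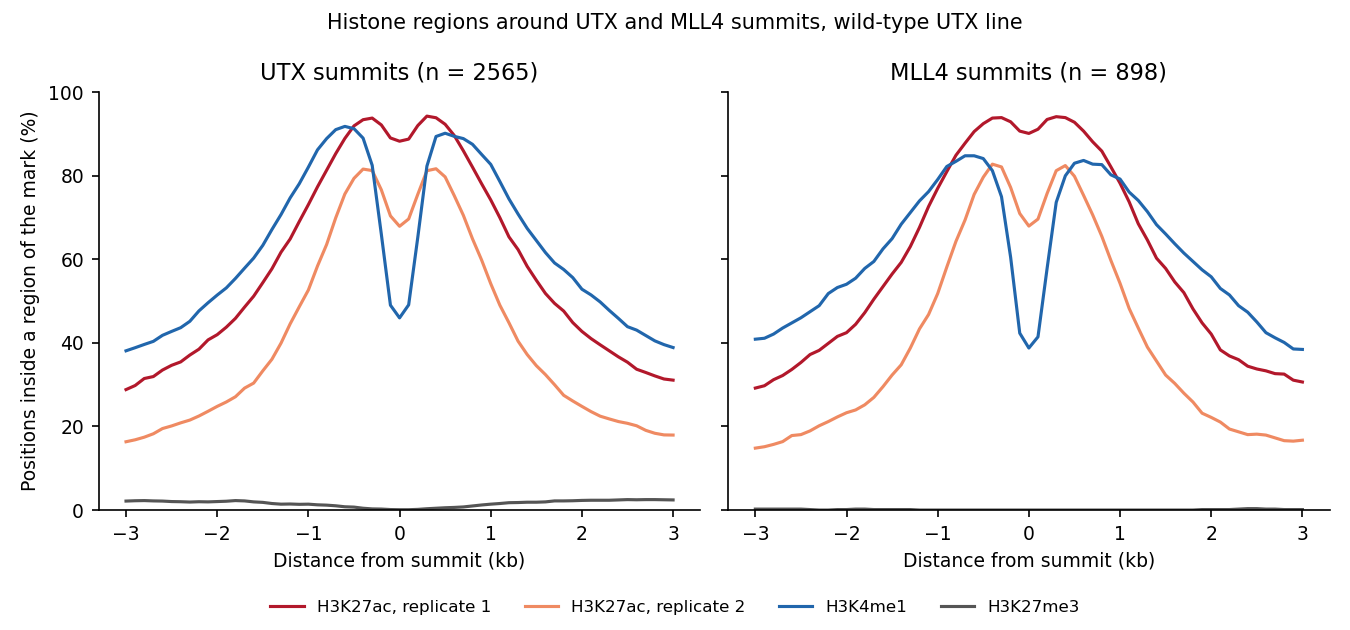
Share of positions inside a called region of each histone mark (y axis, %) by distance from the summit (x axis, kb), for 2565 UTX summits on the left and 898 MLL4 summits on the right. H3K4me1 falls to 46.0% at UTX summits between shoulders of about 90.7%, H3K27ac dips less, and H3K27me3 lies near 0.

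The gaps that held summits were narrow and had the summit near their middle. The 1260 H3K4me1 gaps at UTX had a median width of 454 bp (quartiles 371 and 572 bp), against 713 bp for all 56624 H3K4me1 gaps of at most 2000 bp. Of those at UTX, 77.8% were under 600 bp wide, against 43.0% of all such gaps. The UTX summit lay a median of 54 bp from the gap's centre, and 71.6% of these UTX peaks lay wholly in the gap. The 422 gaps at MLL4 were alike, with a median width of 447 bp and the summit 58.8 bp from the centre. No gap in the 4 histone lists was narrower than 305 bp, so a narrower dip of signal would be listed as an unbroken region.

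Centres of acetylated regions gave a comparison measured at a place other than a factor's summit. It is not independent of the summit result, because the regions with UTX were picked by a UTX peak. In the width class used here, UTX summits lay near the centre, at a median of 0.191 of the way to the edge. Among replicate 1 H3K27ac regions 2000 to 4000 bp wide, the centre fell in an H3K4me1 gap in 27.7% of 808 regions that touched a UTX peak (24.7% to 30.9%) and in 16.2% of 10053 regions that touched neither factor (15.5% to 16.9%). The centre lay inside H3K4me1 in 69.1% of regions with UTX and 56.8% of regions with neither. No H3K4me1 within 1 kb of the centre was found in 5 regions with UTX (0.619%) and in 1138 with neither (11.3%). Acetylated regions with UTX thus had H3K4me1 at or beside the centre more often than regions of like width with neither factor. Replicate 2 gave the same direction, with 0.846% of regions with UTX and 20.1% with neither lacking it. Its gap shares at that width were 28.2% with UTX and 15.8% with neither. At 1000 to 2000 bp and at 4000 to 8000 bp the gap share was also higher with UTX in both libraries. There the intervals stood apart in replicate 1 and overlapped in replicate 2. The replicate 2 shares with UTX and with neither were 28.9% and 24.2% in the narrower class, and 9.74% and 7.20% in the wider.

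**Figure D2:**
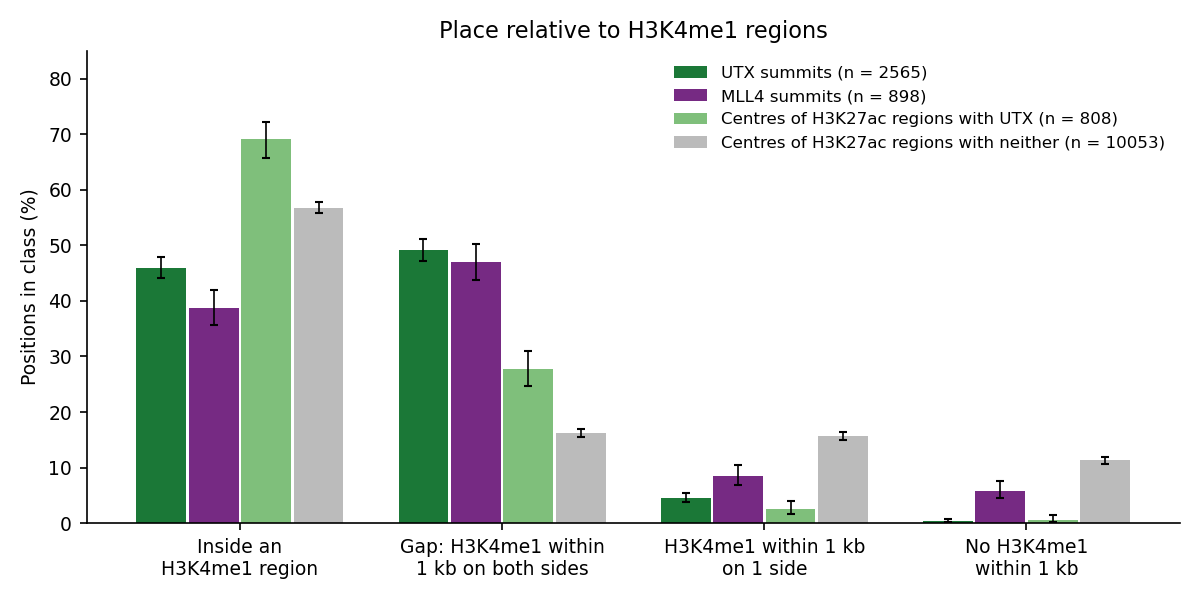
Share of positions (y axis, %) in each place relative to H3K4me1 (x axis) for UTX summits, MLL4 summits and the centres of replicate 1 H3K27ac regions 2000 to 4000 bp wide with UTX or with neither factor. Bars are shares and error bars 95% Wilson intervals; centres lie in a gap in 27.7% of regions with UTX and 16.2% of regions with neither, and UTX summits in 49.1%.

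The edges of acetylated regions also differed in H3K4me1. Of the edges of 1000 to 2000 bp wide H3K27ac regions, 84.1% lay in H3K4me1 where the region touched UTX and 70.0% where it touched neither factor in replicate 1. In replicate 2 the shares were 86.1% with UTX and 64.5% with neither. At 2000 to 4000 bp they were 74.2% and 70.2% in replicate 1, and 85.8% and 70.4% in replicate 2. In regions 4000 to 8000 bp wide the difference was within the intervals in replicate 1, at 68.4% with UTX (65.8% to 71.0%) and 67.3% with neither (65.9% to 68.6%). In replicate 2 the shares at that width were 81.7% with UTX and 75.8% with neither. The edges of regions of 1000 to 4000 bp with UTX were thus in H3K4me1 more often in both libraries. At 4000 to 8000 bp the intervals stood apart in replicate 2 and overlapped in replicate 1. These intervals count both edges of a region as separate, so they may be too narrow.

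The next question was how densely summits filled each combination of marks. The combination with the highest density was an H3K4me1 gap inside acetylated chromatin. In bases acetylated in both libraries, UTX had 172 summits per Mb in H3K4me1 gaps, 24.1 inside H3K4me1, 8.93 with H3K4me1 on 1 side and 1.21 with none. The gap bases made up 4.93 Mb and held 846 UTX summits, while the 32.1 Mb inside H3K4me1 held 775. MLL4 had 65.6 summits per Mb in such gaps, 8.22 inside H3K4me1, 4.85 with H3K4me1 on 1 side and 4.23 with none. The density in gaps was 7.12 times that inside H3K4me1 for UTX and 7.97 times for MLL4. These densities rest on all H3K4me1 regions as called and were not computed with other calls. With only regions of −log10 q of at least 5, fewer UTX summits lay in gaps (18.6%) than inside H3K4me1 (32.7%).

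Outside H3K27ac of both libraries the same order held at far lower densities. There UTX had 4.37 summits per Mb in H3K4me1 gaps and 1.50 inside H3K4me1, and MLL4 had 1.01 and 0.172. H3K4me1 without acetylation was the larger part of that mark, as 59.9% of the H3K4me1 bases lay outside H3K27ac of both libraries. Of the acetylated gaps, 876 of 9332 (9.39%) held a UTX summit, against 99 of 42049 gaps outside H3K27ac (0.235%). Thus most acetylated H3K4me1 gaps had no UTX peak.

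Occupancy of acetylated gaps also varied with gap width. UTX summits were found in 16.1% of gaps of 300 to 400 bp, 19.7% of 400 to 600 bp, 11.2% of 600 to 1000 bp and 1.35% of those from 1000 bp up to 2000 bp. MLL4 summits were found in 6.11%, 7.99%, 3.77% and 0.809% of gaps in the same 4 width classes. Both factors had their highest share in gaps of 400 to 600 bp and their lowest in the widest ones. For MLL4 the intervals at 300 to 400 bp (5.08% to 7.32%) and 400 to 600 bp (6.76% to 9.41%) overlapped. Those of UTX nearly met (14.5% to 17.9% and 17.9% to 21.7%).

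**Figure D3:**
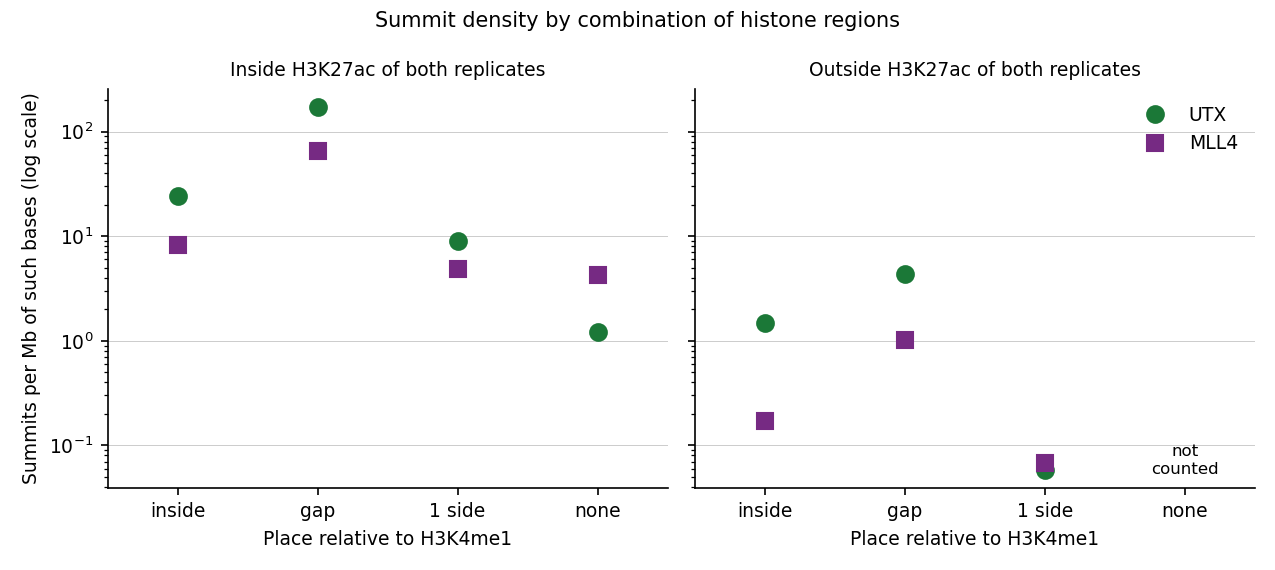
Summits per Mb (y axis, log scale) of UTX and MLL4 in bases inside H3K27ac of both libraries (left) and outside H3K27ac of both (right), by place relative to H3K4me1 (x axis; unlisted genome not counted). Gap bases inside H3K27ac hold the most summits, 172 per Mb for UTX and 65.6 for MLL4.

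The position of summits inside their acetylated regions was then measured. UTX and MLL4 stood near the middle of H3K27ac regions and seldom near an edge. On a scale where 0 is the centre of the region and 1 its edge, an even spread gives a median of 0.5. The median for UTX was 0.230 in replicate 1 and 0.252 in replicate 2 (mean 0.241 ± 0.0156, SD, n = 2). The UTX summit was nearer to the centre than to an edge in 85.3% and 81.4% of cases. Only 0.530% and 1.44% of these summits were within 200 bp of an edge.

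In base pairs, the nearest H3K27ac edge was a median of 1360 bp away from UTX in replicate 1 and 1046 bp in replicate 2 (mean 1203 ± 222 bp, SD, n = 2). The longer arm of the region measured a median of 2333 and 1844 bp. MLL4 was placed alike, with median relative positions of 0.220 and 0.246 and edge distances of 1344 and 982 bp. The 1179 UTX summits inside an H3K4me1 region were also central to it, with a median relative position of 0.251 and 1242 bp to the nearest edge.

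Central placement was clearest in regions of 1000 to 4000 bp, and summits did not crowd the centre in the widest. In replicate 1 the median relative position of UTX was 0.178 in regions of 1000 to 2000 bp, 0.191 in regions of 2000 to 4000 bp, 0.271 in regions of 4000 to 8000 bp and 0.443 in regions of 8000 bp or more. In replicate 2 the same classes had medians of 0.193, 0.211, 0.368 and 0.488. The edge distance grew with width all the same, with medians in replicate 1 of 650, 1130, 1896 and 2890 bp. Regions under 1000 bp held only 24 and 34 UTX summits, which were less central in replicate 1 (median 0.378) than in replicate 2 (0.260). In regions of 8000 bp or more, 61.6% of UTX summits in replicate 1 and 51.4% in replicate 2 were nearer to the centre than to an edge. Central placement there was therefore weak in replicate 1 and hardly seen in replicate 2, and UTX was still well inside the edges.

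**Figure D4:**
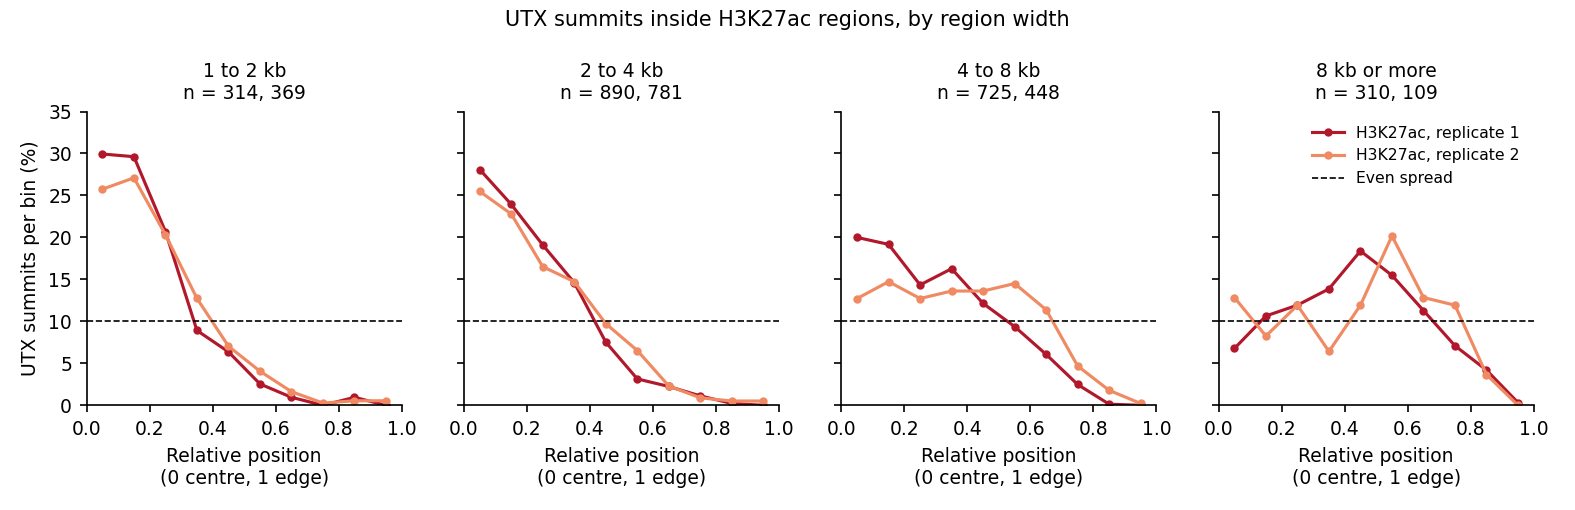
UTX summits in each of 10 bins (y axis, %) of the way between region centre and edge (x axis, 0 to 1) inside H3K27ac regions of 1000 bp or more in 4 width classes, by replicate; n gives summits in replicates 1 and 2, and the dashed line an even spread. Summits crowd the centre in the 2 narrower classes (replicate 1 medians 0.178 and 0.191) and not in regions of 8000 bp or more (0.443).

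The wider an acetylated region was, the more often it held a summit. A UTX summit was found in 2118 of 63505 H3K27ac regions of replicate 1 (3.34%) and in 1624 of 40438 regions of replicate 2 (4.02%). An MLL4 summit was found in 784 of 59267 regions (1.32%) and 596 of 37619 (1.58%) on the chromosomes with MLL4 peaks. Regions with a UTX summit had a median width of 3649 bp in replicate 1 and 2853 bp in replicate 2, against 1026 and 968 bp for regions without one. Occupied regions were thus far wider than the rest in both libraries.

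The regions were put in 10 equal groups by width, with group 1 the narrowest. The share of regions with UTX in replicate 1 was 0.0157% in group 1, 0.315% in group 5, 6.60% in group 9 and 19.8% in group 10. In replicate 2 the same groups had 0% (0 of 4044, upper Wilson bound 0.0949%), 0.569%, 8.85% and 21.0%. The widest regions also held more summits for their length, since UTX density in replicate 1 was 3.41 per Mb in group 5, 25.0 in group 9 and 42.7 in group 10. Group 10 regions with UTX had a median fold enrichment of H3K27ac of 9.62 in replicate 1, against 8.38 without UTX, where fold is the authors' own value for a region. For MLL4 the shares in group 10 were 8.13% and 7.62%.

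**Figure D5:**
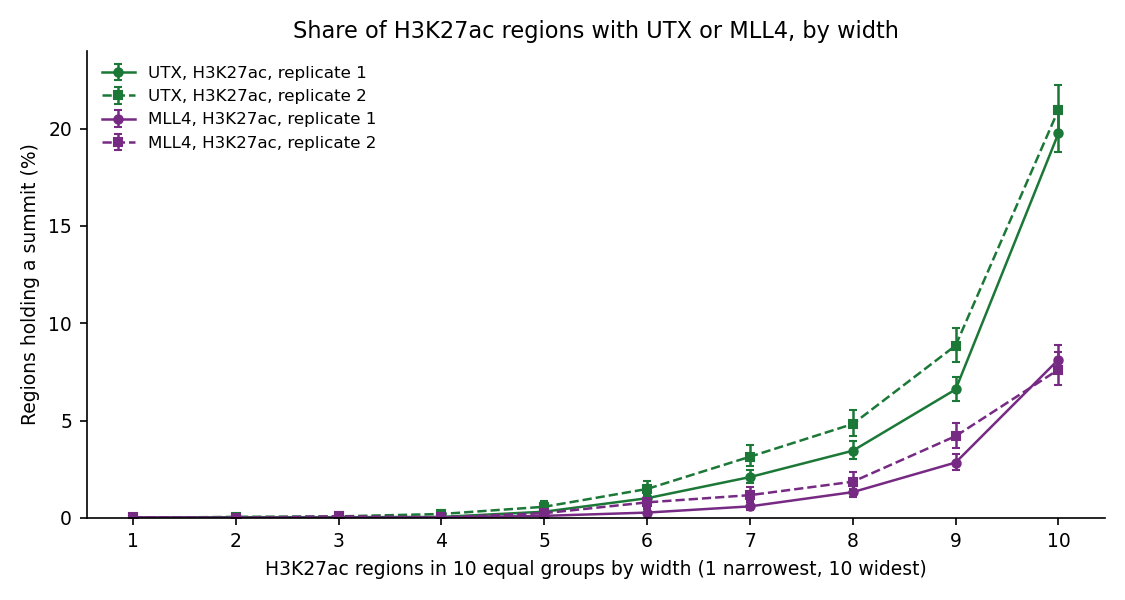
Share of H3K27ac regions holding a UTX or MLL4 summit (y axis, %) in 10 equal groups by region width (x axis), for both H3K27ac replicates, with 95% Wilson intervals. UTX reaches 19.8% and 21.0% of regions in the widest group, and MLL4 8.13% and 7.62%.

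Even so, many wide regions had no factor peak. Of replicate 1 regions of 8000 bp or more, 246 of 601 (40.9%) held UTX and 94 of 547 (17.2%) held MLL4, and in replicate 2 the counts were 85 of 174 (48.9%) and 27 of 158 (17.1%). Ranked by the mean of its widths in both libraries, the widest H3K27ac region lay on chromosome 21 from 44912513 to 44945955. It was 33.4 kb wide in replicate 1 and 14.0 kb in replicate 2, had H3K4me1 over 92.2% of its length, and held no UTX summit. The sixth by the same mean lay on chromosome 7 from 27200036 to 27220813, had H3K4me1 over 21.0% of its length, and held neither factor. The other 4 of the 6 widest regions held 1 UTX summit each in replicate 1, among them the region on chromosome 11 from 118777762 to 118801843, which also held 1 MLL4 summit.

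Most occupied regions had a single UTX summit. In replicate 1, 1986 regions held 1, 120 held 2, 11 held 3 and 1 held 4. The region with 4 lay on chromosome 19 from 13949209 to 13965467, was 16.3 kb wide and also held 2 MLL4 summits. The 132 regions with several UTX summits had a median width of 6804 bp. UTX summits were otherwise scattered, with a median spacing of 375 kb between neighbours and 40 neighbouring pairs within 1 kb. The 1 Mb bins with most UTX summits were at 70 to 71 Mb of chromosome 15 and 193 to 194 Mb of chromosome 3, with 12 each, of which 1 and 3 overlapped a UTX peak of the empty-vector line.

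UTX and MLL4, as subunits of one complex, were next compared site by site. A minority of UTX peaks met an MLL4 peak, whereas most MLL4 peaks met UTX. An MLL4 peak shared at least 1 bp with 579 of 2360 UTX peaks (24.5%, 22.8% to 26.3%), and with chromosomes 20 to 22 counted the share was 22.6% of 2565. In the other direction, 580 of 898 MLL4 peaks (64.6%) met a UTX peak. At these shared peaks the summits were a median of 28 bp apart (quartiles 11 and 55.5 bp), which is far less than the width of either peak. The pairs were picked by an overlap of short peaks, so a small distance was partly set by that choice.

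UTX peaks with MLL4 were acetylated more often in both libraries and stood more often in H3K4me1 gaps. H3K27ac held 95.9% and 75.3% of UTX summits with MLL4 in replicates 1 and 2, against 85.1% and 64.5% of those without. The share in an H3K4me1 gap was 57.3% with MLL4 (53.3% to 61.3%) and 48.0% without (45.7% to 50.3%). The 580 MLL4 peaks with UTX also differed in place from the 318 without it. An H3K4me1 gap held 57.1% of the MLL4 summits with UTX (53.0% to 61.0%) and 28.6% of those without (23.9% to 33.8%). No H3K4me1 lay within 1 kb of 1 MLL4 summit with UTX (0.172%) and of 51 without (16.0%). H3K27ac of replicates 1 and 2 held 95.9% and 76.0% of the MLL4 summits with UTX, against 79.6% and 53.1% of those without. Stronger peaks had a partner more often. In the lowest and highest of 5 equal groups by fold enrichment, 9.50% and 45.8% of UTX peaks met MLL4. For MLL4 peaks, 52.8% and 78.9% met UTX. The part of peak strength in the differences with and without a partner was not tested.

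In acetylated regions as wholes, 561 replicate 1 regions held both factors, 1381 UTX only and 223 MLL4 only, with median widths of 3933, 3458 and 3031 bp, and the 57102 regions with neither had a median of 1017 bp. H3K4me1 touched every one of the 561 regions with both factors, 99.9% of those with UTX only, 96.4% of those with MLL4 only and 89.9% of those with neither. Regions with UTX, with or without MLL4, were thus nearly never without H3K4me1. These shares were not matched for width, and a wider region meets an H3K4me1 region more easily.

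Peak strength went with the place of a UTX peak. UTX peaks were put in 5 equal groups by fold enrichment within their list. From the lowest to the highest group, the share of UTX summits in an H3K4me1 gap was 40.4%, 45.4%, 46.4%, 55.4% and 58.1%, and the share inside H3K4me1 was 55.6%, 48.7%, 49.1%, 40.0% and 36.5%. An MLL4 peak was present at 9.50%, 17.3%, 20.8%, 28.6% and 45.8% of UTX peaks. Stronger UTX peaks thus lay in gaps and with MLL4 more often. Peak width moved with strength, with a median of 219 bp in the lowest and 293 bp in the highest group, and its part in these trends was not tested.

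Acetylation ran the other way. H3K27ac of replicate 1 held 92.0% of UTX summits in the lowest group and 83.2% in the highest, and replicate 2 held 71.5% and 64.3%. The relative position in H3K27ac regions stayed between 0.207 and 0.265 over the groups in replicate 1. For MLL4, the share in an H3K4me1 gap did not follow strength, with 46.7%, 47.5%, 48.3%, 44.1% and 48.3% from the lowest to the highest group.

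The strongest peaks show these places one by one. The 12 UTX peaks of highest fold enrichment comprised 9 in an H3K4me1 gap and 3 inside H3K4me1, 8 in H3K27ac of both libraries and 4 in neither. An MLL4 peak was present at 8 of the 10 that lie on chromosomes with MLL4 peaks. Of the 12, 4 overlapped a UTX peak of the empty-vector line, and these included the first 3 by fold. The first lay on chromosome 15 from 70787052 to 70787691 (17.3-fold), in a 570 bp H3K4me1 gap of an H3K27ac region 8268 bp wide in replicate 1, with the MLL4 summit 10 bp away.

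The fourth, which met no peak of the empty-vector line, lay on chromosome 3 from 37987490 to 37987844 (13.1-fold). Its summit stood in a 498 bp gap of H3K4me1, 1913 bp from the edge of a 5345 bp H3K27ac region in replicate 1, and 38 bp from an MLL4 summit. The fifth, on chromosome 19 from 39524191 to 39524474 (12.8-fold), stood in a 322 bp gap, and its MLL4 partner was the MLL4 peak of highest fold (14.0-fold, chromosome 19 from 39524235 to 39524469). Among the 8 MLL4 peaks of highest fold, 7 met a UTX peak, 2 lay in an H3K4me1 gap and 5 inside H3K4me1. The exception without UTX, on chromosome 14 from 50328823 to 50329317 (12.3-fold), was also without H3K4me1 within 1 kb.

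UTX summits outside acetylation formed the last group. The 275 UTX summits outside H3K27ac of both libraries were still tied to H3K4me1, with 58.2% inside it and 36.0% in a gap, against 45.2% and 49.4% of the 1714 summits acetylated in both. Of these 275, 118 (42.9%) lay between H3K27ac regions of replicate 1 that ended within 1 kb on both sides. An MLL4 peak was present at 7.17% of the unacetylated UTX peaks and 27.6% of those acetylated in both libraries. H3K27me3 lay within 1 kb of 52 of the 275 (18.9%) and of 1 of the 1714 (0.0583%). The median fold of the 275 was 5.76, against 5.07 for the acetylated peaks. They also met a UTX peak of the empty-vector line more often, in 11 cases (4.00%, 2.25% to 7.02%). Among the 1714 acetylated in both libraries there were 10 such cases (0.583%, 0.317% to 1.07%). The part of this in the fold values was not tested.

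H3K27me3 and acetylation hardly met in this line, since 0.0224% of the H3K27me3 bases were also in an H3K27ac region of either library. Of the 168 Mb of H3K27me3, 1.82% was also in H3K4me1. Only 2 UTX summits lay inside H3K27me3, on chromosome 2 from 69116702 to 69116934 (7.41-fold) and on chromosome 14 from 100288078 to 100288361 (5.02-fold). Both were also inside H3K4me1, outside H3K27ac and without MLL4. No MLL4 summit lay within 1 kb of H3K27me3 (0 of 898, upper Wilson bound 0.426%).

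A small set of UTX peaks sat at the border of H3K27me3. The 56 UTX summits within 1 kb of it (2.18%) had H3K27me3 on 1 side in 34 cases and on both sides in 20, beside the 2 inside. H3K27me3 calls were mostly near the caller's limit, with a median −log10 q of 1.60, and with only the 295 regions of −log10 q of at least 5 the share of UTX summits within 1 kb was 0.195%. H3K27ac of replicate 1 held 7.14% of them and 90.0% of the other 2509, and replicate 2 held 1.79% and 69.4%. H3K4me1 held 76.8% (64.2% to 85.9%) of those near H3K27me3 and 45.3% of the others, and an H3K4me1 gap was found at 10.7% and 50.0%. Thus the summits near H3K27me3 were mostly inside H3K4me1 rather than between its regions, and 0 of the 50 on chromosomes with MLL4 peaks had an MLL4 peak (upper Wilson bound 7.13%), against 25.1% of the others.

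These 56 peaks were not weak, with a median fold of 6.62 against 5.18 for the other UTX peaks. They also met a UTX peak of the empty-vector line more often, in 7 of 56 cases (12.5%, 6.19% to 23.6%) against 20 of 2509 (0.797%), and the part of this in the result was not tested. The H3K4me1 regions that held 43 of them were narrower, with a median of 1630 bp, than the 3658 bp of all H3K4me1 regions that held a UTX summit. The strongest of the 56 lay on chromosome 3 from 181617442 to 181617929 (12.4-fold), 0.301 kb from H3K27me3 and inside H3K4me1.

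Acetylated chromatin without either factor gives a background for these distances. H3K27me3 lay within 1 kb of 2.18% of UTX summits (1.69% to 2.82%), against 0.0158% of the centres of 12688 replicate 1 H3K27ac regions of 2000 bp or more with neither factor. Within 10 kb the shares were 9.71% for UTX (8.62% to 10.9%), 4.90% for MLL4 (3.67% to 6.51%) and 5.18% for those centres (4.81% to 5.58%). The centres had about 1 kb or more of H3K27ac on each side, so their share within 1 kb was low by construction. Of the 56 UTX summits within 1 kb, 52 were outside H3K27ac of both libraries. Among UTX summits acetylated in both, the share was 0.0583% (0.0103% to 0.330%). The shares within 1 kb thus do not separate UTX from acetylation. Within 10 kb the share of all UTX summits, acetylated or not, was above that of the centres. The intervals of MLL4 and of the centres overlapped there. The median distances lay nearer to each other, at 83.6 kb for UTX, 82.7 kb for MLL4 and 88.6 kb for the centres.

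Chromosomes differed in UTX density. For each Mb of replicate 1 H3K27ac, chromosome 15 had the most UTX summits (35.5) and chromosome X the fewest (9.95), with 23 summits in 2.31 Mb. The other 21 chromosomes lay between 18.1 on chromosome 6 and 35.2 on chromosome 7. Chromosomes 20, 21 and 22, which had no MLL4 peak, had 33.4, 31.4 and 24.9 UTX summits per Mb, within the range of the rest. MLL4 density was also lowest on chromosome X (3.46) and highest on chromosome 15 (16.1) among the 20 chromosomes with peaks.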

How the data were processed

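UTX and MLL4 chromatin was fixed and digested with micrococcal nuclease and sonicated, and that for histone marks fixed and sonicated, per the labels' protocols. Peaks were called with MACS2 on hg19, also named GRCh37, per the submitters' processing notes. The sources used here give no version, aligner, read filter or duplicate handling, nor what the word for merging in the UTX peak names refers to. The deposited lists are narrow peaks for UTX and MLL4 and broad regions for the histone marks. The fold enrichment is a linear ratio given by the authors' peak caller. The authors deposited a −log10 p-value and a −log10 q-value for each peak, and the q-value served as a filter. The deposited score was not used.

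Positions are counted from 1 on hg19. A UTX or MLL4 summit is the peak start plus the summit offset that the file gives. Intervals were compared with custom code in Python 3.11.15, NumPy 2.4.6, pandas 2.3.3 and SciPy 1.17.1, checked on 3000 simulated positions with 0 mismatches, and matplotlib 3.10.9 drew the figures. The check covered regions hit, nearest distances, overlaps and joining, and not the separate left and right distances that define a gap. An overlap needed at least 1 bp. Depth per sample is unknown. No test was run, since there is 1 list per antibody and 2 for H3K27ac, and peaks of a list are not replicates. The labels do not say whether the 2 H3K27ac libraries came from separate cultures, so their SD may be technical.

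Regions named are the 12 UTX and 8 MLL4 peaks of highest fold, the 6 widest H3K27ac regions over both libraries, the 6 replicate 1 regions with most UTX summits, the UTX summits inside H3K27me3 and the 5 strongest UTX peaks outside H3K27ac. The lists and questions were chosen with earlier results of these data known. The use of only the 20 chromosomes with MLL4 peaks for the overlaps, densities and region shares of MLL4, and of the UTX peaks of the empty-vector line, was decided after the values were seen. Alternatives covered q thresholds, summit against midpoint, joining of regions, 1 bp overlap, dense bins and each H3K27ac library. No hg19 sequence or annotation was used here, so no genes or sequences are given.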

Additional observations from a re-analysis of the deposited data

How the results depend on the processing

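For 9 results, 55 alternatives other than a single H3K27ac library were computed, and 44 stayed within the SD of the 2 libraries or within the Wilson interval of the share. An SD of 2 libraries is a wide limit. For UTX summits inside H3K27ac it ran from 63.7% to 92.4%, so alternatives at 73.9% (strict histone regions) to 86.6% (joined regions) stayed within it. With only histone regions of −log10 q of at least 5, 32.7% of UTX summits were inside H3K4me1 (46.0% with all regions), 18.6% in an H3K4me1 gap (49.1%) and 0.195% within 1 kb of H3K27me3 (2.18%), while 26.0% of the widest H3K27ac regions held UTX (20.4%). This filter leaves 20175 H3K4me1 and 295 H3K27me3 regions. With histone regions up to 1 kb apart joined, 93.6% of UTX summits were inside H3K4me1, the relative position in H3K27ac was 0.269 (0.241) and 23.1% of the widest regions held UTX. Counting 1 bp of the peak, 60.7% of UTX peaks met H3K4me1. With UTX and MLL4 peaks of −log10 q of at least 5, 17.2% of the widest regions held UTX and 22.2% of UTX peaks had MLL4 (24.5%), and with chromosomes 20, 21 and 22 counted this was 22.6%. Each H3K27ac library alone gave 67.9% to 88.2% of UTX summits and 67.9% to 90.1% of MLL4 summits inside H3K27ac, edge distances of 1046 to 1360 bp, relative positions of 0.230 to 0.252 and 19.8% to 21.0% of the widest regions with UTX, and such values lie within the SD of the 2 libraries by construction. Leaving out UTX peaks that overlap one of the empty-vector line, an alternative chosen after seeing the data, moved none of the 8 UTX results it was run on. Leaving out the 2 bins of 1 Mb with more than 10 UTX peaks moved none of the 9. The joined regions could not be used for the gaps, which joining removes. No paired analysis was possible because no groups were compared. The narrow lists have no replicate, and depth, which sets how many regions pass the caller's threshold, is unknown.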

Other observations

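Some UTX peaks with high fold enrichment lay outside acetylation in both libraries. The 5 strongest of these had fold enrichments of 11.4 to 12.7. The first lay on chromosome 9 from 88156769 to 88157065 (12.7-fold), inside H3K4me1, 10.8 kb from H3K27me3 and without an MLL4 peak. The one on chromosome 9 from 117670434 to 117670998 (12.4-fold) stood in a 618 bp H3K4me1 gap, shared its summit base with an MLL4 peak and overlapped a UTX peak of the empty-vector line. The one on chromosome 1 from 240994535 to 240994797 (12.1-fold) stood in a 644 bp H3K4me1 gap, 1.30 kb from H3K27me3, with an MLL4 summit 25 bp away. The one on chromosome 5 from 76101809 to 76102213 (11.4-fold) stood in a 355 bp H3K4me1 gap, 1.41 kb from H3K27me3, without MLL4.

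The replicate 1 H3K27ac regions with 3 UTX summits that head the list by position lay on chromosome 1 from 151958191 to 151968051 (9.86 kb, no MLL4 summit) and from 181079035 to 181091456 (12.4 kb, 1 MLL4 summit), on chromosome 2 from 219146100 to 219164399 (18.3 kb, 1 MLL4 summit) and from 219757177 to 219763391 (6.21 kb, no MLL4 summit), and on chromosome 3 from 193850579 to 193860772 (10.2 kb, no MLL4 summit). H3K4me1 covered 51.1% to 94.4% of their length.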
